A study of Mus musculus with 2 samples.

Results

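Id1, Id2 and Id3 encode inhibitors of DNA binding, and these 3 of the 33696 genes counted in the deposited lung data are described here across cell types. The genes were taken by name, without regard to their measured values. The data are single-cell RNA counts of sorted live lung cells from adult mice, made with the 10x Genomics 3′ chemistry, in 1 library labelled GFI1 KO and 1 labelled WT. GFI1 is a zinc finger repressor of transcription, and the study uses a germline knockout of its gene in all cells of the animal. The lungs of both genotypes were dissociated with enzymes, and no treatment is named in the labels for either library. Each label names a single mouse, and although the study's methods describe duplicate samples per genotype, 1 library of each was analysed here. Genotype, mouse and library therefore cannot be told apart, and no value carries a test. The study examined what GFI1 does in γδ T cells and their thymic precursors, and its lung single-cell figures show the CD3-positive cells alone. Its introduction cites earlier work in which GFI1 regulated Id1 and Id2 expression in pre-T cell differentiation. The values here describe the Id genes in T cells and in the other gated types of the lung libraries.

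Id proteins have a helix-loop-helix fold but lack the basic stretch that touches DNA. They pair with the E proteins, the helix-loop-helix factors encoded by Tcf3, Tcf4 and Tcf12, and keep them off their sites. Id1 and Id3 are well known targets of bone morphogenetic protein (BMP) signals carried by SMAD factors in endothelium. In lymphocytes, Id2 is needed for NK cells and innate lymphoid cells and is known for effector T cells, while Id3 is known for naive and resting T cells. Id2 also marks conventional dendritic cells, whereas plasmacytoid dendritic cells depend on the E protein Tcf4.

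The members are alike where they encode the helix-loop-helix fold. A stretch of 120 coding bases from each mouse transcript is shown. It was chosen as the ungapped stretch most alike in all 3 genes, so its likeness is higher than elsewhere by choice. Capitals mark the bases that are the same in all 3 genes. The transcripts are Id1-202, Id2-203 and Id3-201 of the GENCODE vM21 annotation, and the stretches are bases 178 to 297, 109 to 228 and 124 to 243 of their coding sequences.
Id1: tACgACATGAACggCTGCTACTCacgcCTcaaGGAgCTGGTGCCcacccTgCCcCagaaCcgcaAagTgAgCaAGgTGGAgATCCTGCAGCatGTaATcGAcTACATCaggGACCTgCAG
Id2: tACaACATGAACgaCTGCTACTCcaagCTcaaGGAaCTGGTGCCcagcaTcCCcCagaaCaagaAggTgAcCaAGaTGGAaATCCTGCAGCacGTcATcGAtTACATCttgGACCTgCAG
Id3: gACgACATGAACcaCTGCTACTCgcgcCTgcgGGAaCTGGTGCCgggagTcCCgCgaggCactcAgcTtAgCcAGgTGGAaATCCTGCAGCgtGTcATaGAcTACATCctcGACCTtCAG
Of the 120 bases, 77 (64.2%) were identical in all members. Id1 and Id2 shared 81.7% of them, Id2 and Id3 71.7%, and Id1 and Id3 70.8%. Over the whole transcripts the longest run of bases shared by any pair was 19, between Id2 and Id3, so the members' reads can be told apart despite the likeness of this fold.

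GFI1 binds DNA at sites with the core letters AATC, so the promoters that could be matched, those of Id2 and Id3, are printed from 250 bases before to 50 bases after the transcription start. They come from RefSeq on the GRCm38.p6 build, which is not the build of the count files, and 2 of the 3 members matched. Capitals mark AATC or its complement GATT.
Id2, chr12:25096043-25096342, minus strand: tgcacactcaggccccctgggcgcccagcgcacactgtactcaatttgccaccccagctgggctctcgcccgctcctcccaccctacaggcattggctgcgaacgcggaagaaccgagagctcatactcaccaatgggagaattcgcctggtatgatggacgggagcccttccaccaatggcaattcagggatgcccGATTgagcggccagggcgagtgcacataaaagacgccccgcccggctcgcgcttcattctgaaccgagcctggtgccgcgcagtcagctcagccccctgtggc
Id3, chr4:136143572-136143871, plus strand: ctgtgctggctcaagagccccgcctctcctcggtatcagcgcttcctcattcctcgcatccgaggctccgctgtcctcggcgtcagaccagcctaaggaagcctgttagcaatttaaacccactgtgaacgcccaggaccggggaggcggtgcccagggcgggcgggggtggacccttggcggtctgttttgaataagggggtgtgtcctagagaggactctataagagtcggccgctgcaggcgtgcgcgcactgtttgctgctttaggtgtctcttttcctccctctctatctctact
AATC was searched on both strands and was found at 1 place in the Id2 window and at 0 in the Id3 window. It was present in 73.1% of 32851 mouse promoters of the same length, so most promoters hold it as that of Id2 does. CANNTG, the core letters of E protein sites, where N is any base, was found at 1 place in the Id2 window and at 0 in that of Id3, against 72.3% of all promoters. These are matches of letters, and binding was not measured in these libraries.

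The library labelled GFI1 KO held 10700 called cells with 116825535 gene UMIs (unique molecular identifiers, each standing for 1 captured RNA molecule), and the WT library 19515 cells with 162599284. After filtering, 10495 and 19342 cells remained, with medians of 11076 and 6217 UMIs, and 74 cell barcodes occurred in both libraries. Gfi1 RNA itself was not lower under the KO label. It stood at 3.59 CPM (counts per 1000000 UMIs) against 3.46 in the WT library, and in T cells at 23.6 against 9.79. Reads from the 3′ end may lie outside the deleted part, so this value does not check the label, and the groups are called by their labels throughout. Cells were assigned to types by 16 panels of marker genes, and the limits of these gates were set after seeing the data. In most gates, 5 or 6 of 6 marker genes not used for gating were at least 2-fold higher than in the other gates. Classical monocytes were the weakest in this check. Their summed marker level was 6668 CPM against 7273 in other gates in the KO library and 5285 against 6316 in the WT library. Composition differed strongly, since the KO library held 4412 classical monocytes and 21 neutrophils and the WT library held 312 and 1424.

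Over all kept cells, Id2 stood at 203 CPM in the KO library and 238 in the WT library, Id3 at 99.0 and 129, and Id1 at 53.8 and 70.5. Levels here are UMIs summed over the cells of a gate, as CPM of all UMIs counted in that gate, with exact Poisson 95% intervals. Ratios are KO over WT label, with exact conditional binomial 95% intervals. These intervals and those of shares cover counting error only and hold no spread between mice. Id1 was high in endothelial cells and alveolar macrophages, Id2 in NK cells, innate lymphoid cells and conventional dendritic cells, and Id3 in endothelial cells and fibroblasts.

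**Figure D1:**
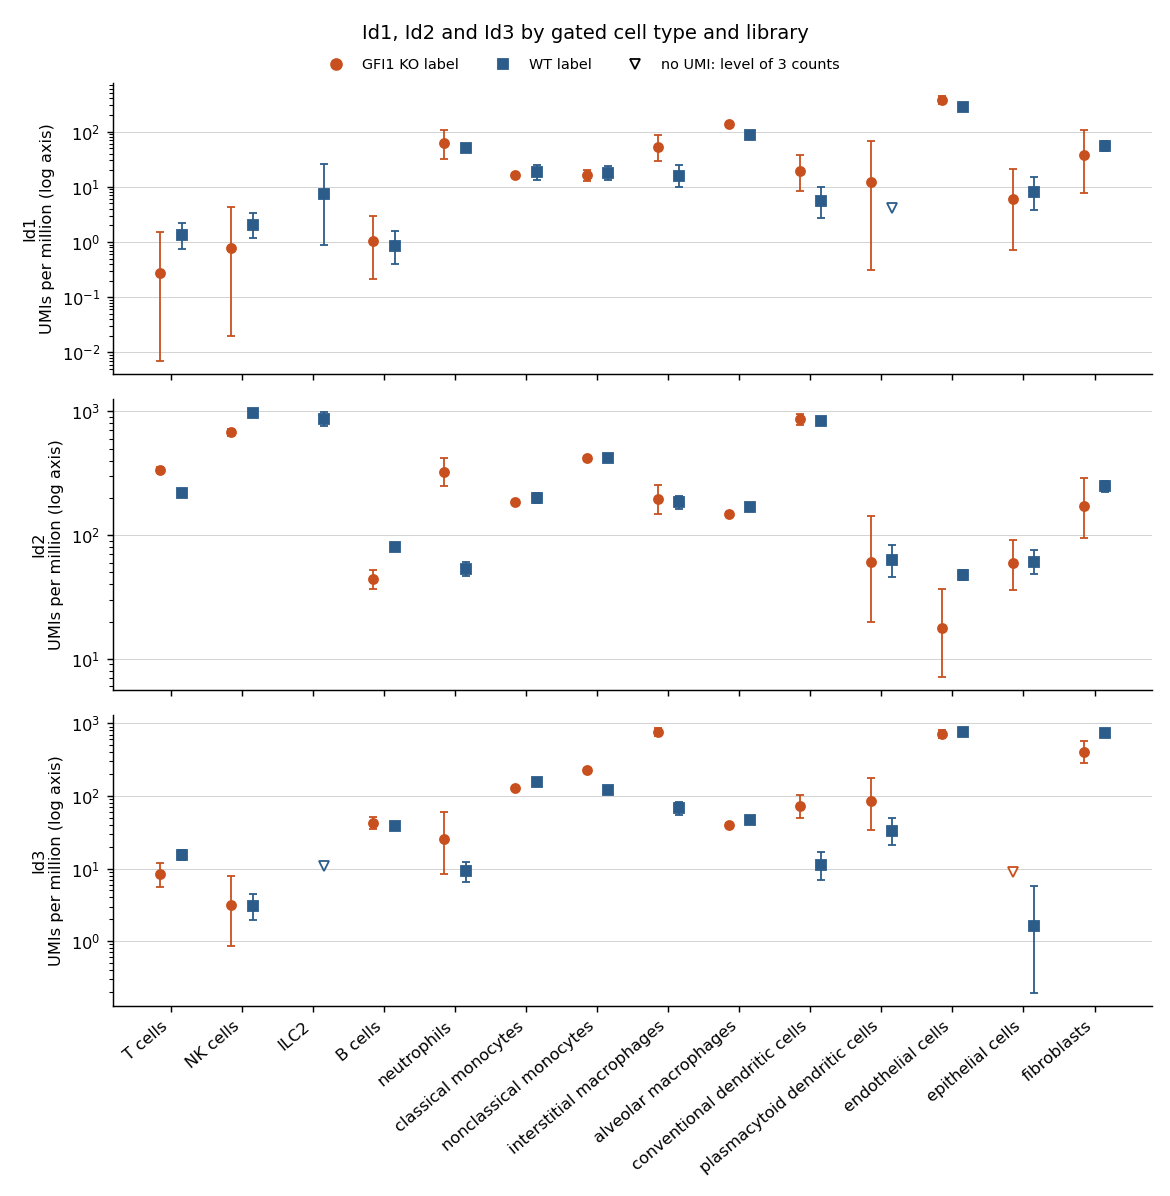
Levels of Id1, Id2 and Id3 in CPM on a log axis, by gated cell type with at least 10 cells, for the library labelled GFI1 KO (circles) and that labelled WT (squares). Bars are exact Poisson 95% intervals, and open triangles stand at the level of 3 counts where no UMI was found. Id2 sits at 964 in WT NK cells and Id3 at 717 and 768 in endothelial cells, while Id1 in T, NK and B cells stays between 0.277 and 2.03.

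Id1, the endothelial BMP target, stood at 379 CPM (321 to 445) in KO endothelial cells and 279 (269 to 289) in WT ones. Alveolar macrophages followed at 136 and 86.6 CPM. Both were apart from all types below them in either library, among the 7 KO and 14 WT types with at least 50 cells. Classical and nonclassical monocytes lay side by side, at 16.5 and 16 CPM under the KO label and 18.7 and 17.8 under WT, with overlapping intervals. Lymphocytes held hardly any Id1. T cells had 1 UMI in 752 KO cells and 15 UMIs in 2387 WT cells, NK cells 1 in 229 and 16 in 1987, and B cells 3 in 881 and 10 in 2962. At these counts a difference of Id1 between the libraries was not detectable in lymphocytes.

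Id2 was highest in NK cells in both libraries, among the types with at least 50 cells. In the WT library NK cells stood at 964 CPM (942 to 986), group 2 innate lymphoid cells (ILC2) at 873 (766 to 991) and conventional dendritic cells at 841 (801 to 882). The ILC2 interval overlapped those of both neighbours, while NK cells lay above dendritic cells. Nonclassical monocytes came next at 421 CPM, then fibroblasts at 248, T cells at 218, classical monocytes at 199, interstitial macrophages at 184 and alveolar macrophages at 170, and each of the latter 5 overlapped its neighbour. B cells stood at 80.0 CPM and endothelial cells had the lowest value, 47.5. The endothelial interval overlapped those of neutrophils at 53.4, epithelial cells at 61.0 and plasmacytoid dendritic cells at 62.3. Under the KO label all 7 ordered types were apart from their neighbours: NK cells 679 CPM, nonclassical monocytes 418, T cells 334, classical monocytes 186, alveolar macrophages 149, B cells 44.3 and endothelial cells 17.8. The same 7 types had the same order in the WT library. Among these 7, Id2 was lowest in both libraries in endothelial cells, where Id1 and Id3 were highest.

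In the WT library Id3 was highest in endothelial cells and fibroblasts. Endothelial cells stood at 717 CPM (636 to 806) in the KO library and 768 (751 to 785) in the WT library, and WT fibroblasts at 741 (701 to 783) overlapped the latter. Classical monocytes at 154 CPM lay above nonclassical ones at 122 in the WT library. The KO library had the opposite order, with 127 CPM in classical and 225 in nonclassical monocytes. B cells and alveolar macrophages overlapped under KO, at 42.5 and 39.6 CPM, and were apart under WT, at 38.7 and 46.4. T cells stood at 8.32 and 15.5 CPM and NK cells at 3.12 and 3.04. No Id3 UMI was found in 51 WT ILC2, where 3 counts would stand at 10.9 CPM and the exact upper bound is 13.4.

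Free RNA from broken cells bears on the low values. Cldn5, a tight junction gene of endothelium, stood at 3643 and 3416 CPM in endothelial cells and at 0.277 and 2.18 CPM in T cells. The KO T cell value lay under the level of 3 counts, 0.832 CPM, so the KO reckoning is uncertain. If endothelial Id3 leaked into T cells in the same proportion, it would give 0.0546 and 0.489 CPM, under the measured Id3 of T cells. In NK cells the same reckoning gave 0.307 and 0.883 CPM, against a measured Id3 of 3.12 and 3.04. Cldn5 in KO NK cells, at 1.56 CPM, was also under its level of 3 counts, 2.34 CPM. Id3 leaked from other types was not reckoned, although classical monocytes held 5568 of the 9363 Id3 UMIs in the KO library. Endothelial cells were among the types lowest in Id2, so the reckoning says little about free Id2. The 4 genes counted as free RNA (Sftpc, Scgb1a1, S100a8, Cldn5) were mostly lower under the KO label. Their median log2 ratio was −0.88 in T cells, where 3 of the 4 were tested, −1.45 in NK cells, −1.19 in B cells and −1.62 in alveolar macrophages. The part of this difference between the libraries in the low Id ratios was not tested beyond the Cldn5 reckoning.

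**Figure D2:**
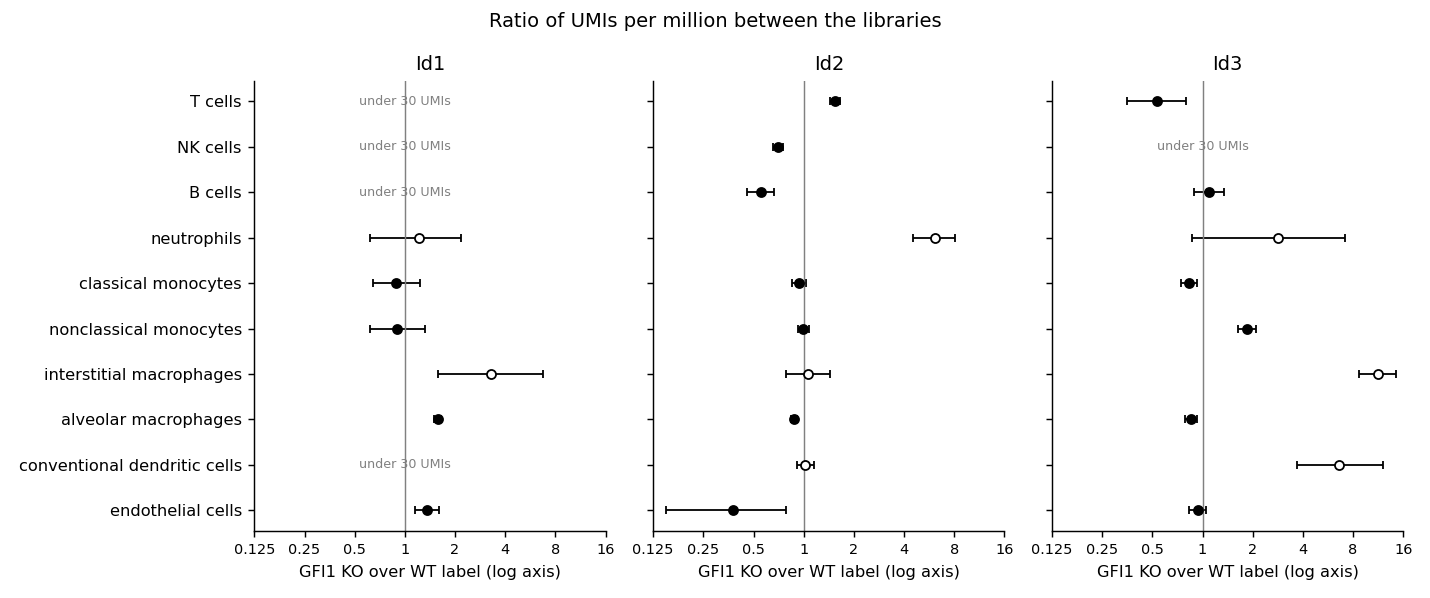
Ratio of CPM, GFI1 KO label over WT label, on a log axis for Id1, Id2 and Id3 in 10 gated types. Bars are exact conditional binomial 95% intervals and the vertical line is a ratio of 1. Open circles mark types with under 50 cells in a library, and genes with under 30 UMIs over both libraries are not drawn. Id2 lies above 1 in T cells and below 1 in NK and B cells, and Id3 lies furthest to the right in interstitial macrophages.

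T cells held more Id2 and less Id3 under the KO label. Id2 stood at 334 CPM (315 to 353, 1204 UMIs in 752 cells) against 218 (209 to 227, 2400 UMIs in 2387 cells), a ratio of 1.54 (1.43 to 1.65). Id3 stood at 8.32 CPM (30 UMIs) against 15.5 (171 UMIs), a ratio of 0.537 (0.351 to 0.795). Both passed 1.5-fold, in opposite directions, but Id2 did not when all gene UMIs were in the total (1.49) or cycling cells were left out (1.44). Of the 10993 genes with at least 30 UMIs in T cells, 11.2% were at least 1.5-fold higher and 11.1% at least 1.5-fold lower, and 10.4% had a ratio as high as that of Id2. A shift of this size was thus not rare among T cell genes.

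Shares of cells with an Id2 UMI had the same order. At a common depth of 1500 UMIs per cell, 30.5% (27.2 to 34) of KO and 21.2% (19.6 to 22.9) of WT T cells had an Id2 UMI, against 52.9% and 38.8% before thinning. For endothelial cells, among the types lowest in Id2, the thinned shares were 2.02% and 5.41%. Median depths were 6353 and 5987 UMIs in T cells and 3708 and 4843 in endothelial cells. Id3 was found in 1.48% and 2.86% of thinned T cells, with overlapping intervals of 0.740% to 2.63% and 2.23% to 3.62%. Epithelial cells, which held 0 and 2 Id3 UMIs in all, had it in 0 of 20 and 0 of 55 thinned cells, with exact upper bounds of 16.8% and 6.49%.

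Id2 was higher under the KO label in CD4, CD8 and γδ T cells, by different amounts, though hardly in CD8 cells at equal depth. Cells with Cd4 and no Cd8a or Cd8b1 UMI had 372 CPM of Id2 in 106 KO cells and 194 in 550 WT cells, a ratio of 1.92 (1.61 to 2.28). Cells with Cd8a or Cd8b1 and no Cd4 had 249 CPM in 397 cells and 212 in 1154, a ratio of 1.18 (1.06 to 1.31). With cells thinned to 1500 UMIs, the ratio was 1.04 in CD8 cells, 1.75 in CD4 cells and 1.52 in γδ T cells. The γδ T cells, taken by the receptor gene Trdc without Cd4, Cd8a or Cd8b1, had the highest Id2 of the subsets, 599 CPM in 77 KO cells and 371 in 84 WT cells, a ratio of 1.62 (1.32 to 1.99). The CD4 interval lay wholly above the CD8 interval. When the surface antibody tags for CD4 and CD8a defined the subsets in place of RNA, the Id2 ratios were 1.74 and 1.14. Regulatory T cells, CD4 cells with the lineage factor Foxp3, stood at 156 and 213 CPM in 14 and 35 cells, a ratio of 0.732 (0.377 to 1.33). Id3 had ratios of 0.639 in CD4 cells, with an interval that holds 1, and 0.439 (0.217 to 0.813) in CD8 cells. In γδ T cells it had 1 KO and 6 WT UMIs.

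The libraries differed in their mix of T cell states, and Id2 differed strongly between the states. Naive-type cells had at least 2 of 6 naive genes (such as Ccr7, Lef1 and S1pr1) and none of 7 effector genes (such as Ccl5, Nkg7 and Gzmb), effector-type cells at least 2 effector genes and fewer than 2 naive genes, and mixed-type cells at least 2 naive genes and any effector gene. Naive-type cells made up 18.6% (15.9 to 21.6) of KO and 37.7% (35.7 to 39.6) of WT T cells, and effector-type cells 19.0% (16.3 to 22.0) and 5.91% (4.995 to 6.93). In both libraries Id2 climbed from naive-type to effector-type cells. Naive-type cells had 85.9 CPM under KO and 111 under WT, mixed-type cells 277 and 230, and effector-type cells 617 and 602. Effector-type over naive-type Id2 was 7.18 (5.26 to 9.999) in the KO and 5.44 (4.70 to 6.29) in the WT library. The same order held within CD4 cells, at 5.62-fold (3.50 to 9.18) and 6.69-fold (5.01 to 8.88), and within CD8 cells, at 9.07-fold (4.22 to 23.2) and 4.16-fold (3.18 to 5.45). Between the labels, ratios within a state were 0.776 (0.557 to 1.06) for naive-type, 1.21 (1.10 to 1.33) for mixed-type and 1.02 (0.886 to 1.18) for effector-type cells. With cells thinned to 1500 UMIs the mixed-type ratio was 1.01. Naive-type CD8 cells went the other way from the whole gate, with 57.6 CPM (7 UMIs) against 142 (100 UMIs). With the state levels of both libraries weighted to the WT mix, an alternative chosen after seeing the data, the Id2 ratio was 1.08 in place of 1.54. That weighting did not separate CD4, CD8 and γδ T cells. The 60 and 69 T cells in none of these states, left out of that weighting, had 692 and 464 CPM. Among γδ T cells, 33 of 77 KO and 14 of 84 WT cells were effector-type. Their Id2 ratio was 1.31 (0.895 to 1.97), and that of mixed-type γδ T cells was 1.11 (0.780 to 1.57), both holding 1.

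Id3 ran the other way along the same states. WT naive-type cells had 22.9 CPM, mixed-type 12.9 and effector-type 6.65, and naive-type stood 3.44-fold (1.29 to 12.9) above effector-type. In the KO library the same states had 19.1, 8.53 and 1.55 CPM, resting on 10, 19 and 1 UMIs. Over all gated T cells, the ratio between the libraries held 1 within its interval in each state. In mixed-type CD8 cells it did not, at 0.429 (0.196 to 0.845) on 10 and 60 UMIs. In naive-type CD4 and CD8 cells the ratios were 1.00 (0.308 to 2.54) and 1.05 (0.113 to 4.82). At the WT mix of states the Id3 ratio was 0.746 in place of 0.537. Over all gated T cells, Id3 and Id2 were thus ordered in opposite ways over the states in both libraries. Within CD4 and within CD8 cells, the effector-type over naive-type interval of Id3 held 1 in both libraries. Its upper bounds were 1.34 and 2.68 under WT and 3.42 and 3.98 under KO. The order of Id3 was therefore not resolved within these subsets.

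**Figure D3:**
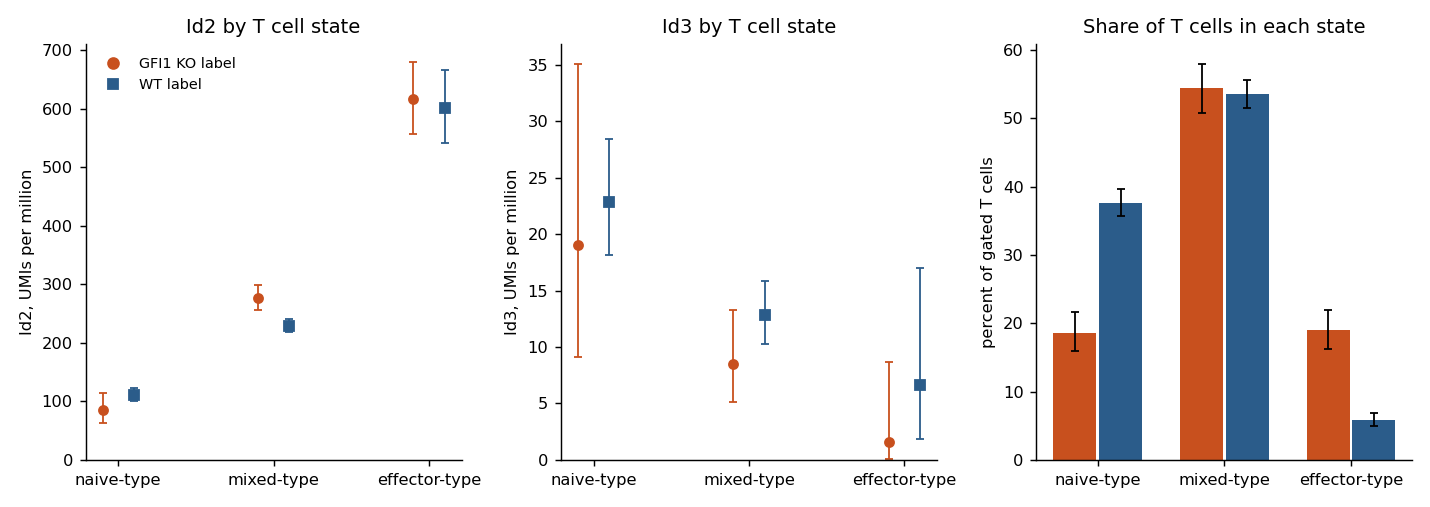
Id2 and Id3 in CPM in naive-type, mixed-type and effector-type T cells (circles, GFI1 KO label, squares, WT label, bars, exact Poisson 95% intervals) and the percent of gated T cells in each state with exact Clopper-Pearson 95% intervals. Id2 climbs from 85.9 to 617 under KO and from 111 to 602 under WT while Id3 declines, and the KO library has 18.6% naive-type cells against 37.7%.

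Other T cell genes were counted from lists. Of 10 naive T cell genes, 6 were at least 1.5-fold lower and 0 higher under the KO label, against 11.1% and 11.2% of all genes. Their median log2 ratio was −0.62 against −0.01 over all genes tested. Lef1 and Bach2, regulators that keep T cells naive or resting, had ratios of 0.482 and 0.486, and Tcf7, the partner of Lef1 encoding TCF1, 0.643. Of 12 effector lymphocyte genes, 9 were higher and 0 lower, against 11.2% and 11.1% of all genes, with a median of 0.82. Gzmb, the protease of cytotoxic granules, had a ratio of 3.82, and Ifng, the type 1 cytokine, 2.73. Zeb2, which encodes a transcription repressor made in terminal effector cells, had a ratio of 2.86. Several of these genes also define the states above. Cells with a UMI of the proliferation genes Mki67 or Top2a had an Id2 of 466 CPM under KO and 285 under WT, and the other T cells 297 and 207.

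NK cells went against T cells: Id2, on which this lineage depends, was lower under the KO label. It stood at 679 CPM (635 to 726, 872 UMIs in 229 cells) against 964 (942 to 986, 7608 UMIs in 1987 cells), a ratio of 0.705 (0.656 to 0.756). This did not pass 1.5-fold, and 21.7% of NK cell genes had a ratio as low or lower. Among 10092 genes tested, 16.7% passed 1.5-fold higher and 19.3% lower, so NK cells differed broadly between the libraries. The thinned share with an Id2 UMI was 61.7% (55.0 to 68.1) and 68.0% (65.9 to 70.1), with overlapping intervals, and 87.8% and 86.9% unthinned, at median depths of 5680 and 4230 UMIs. Cycling NK cells had the lower Id2 in both libraries, 459 and 776 CPM against 814 and 989 in the others. Without cycling cells the ratio was 0.823 (0.758 to 0.892). NK cells exceeded T cells 2.03-fold (1.86 to 2.22) in the KO library and 4.43-fold (4.23 to 4.64) in the WT library.

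Of 12 effector lymphocyte genes in NK cells, 4 were at least 1.5-fold lower and 1 higher, against the 19.3% and 16.7% of all genes, with a median log2 ratio of −0.21 against −0.05 over all genes tested. Among the lower ones, Zeb2 had a ratio of 0.423, Tbx21, which encodes T-bet, 0.479, Cx3cr1, a chemokine receptor of mature NK cells, 0.512, and Prdm1, which encodes Blimp-1, 0.562. Ifng was the higher one at 2.08. Of 11 immediate-early and heat shock genes that respond to dissociation, 3 were higher and 1 lower in NK cells, against 16.7% and 19.3% of all genes. Hspa1a, at a ratio of 7.21, and Fos, at 2.16, were among the higher ones, and Fosb was the lower one. Their part in the Id2 difference was not tested. ILC2, close kin of NK cells that also need Id2, were represented by 2 KO cells, of which 1 held all 9 Id2 UMIs, and by 51 WT cells.

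B cells had less Id2 and a like amount of Id3. Id2 stood at 44.3 CPM (37.0 to 52.6, 129 UMIs in 881 cells) under KO and 80.0 (75.0 to 85.3, 945 UMIs in 2962 cells) under WT, a ratio of 0.553 (0.456 to 0.665). Of 10720 genes tested in B cells, 7.85% were at least 1.5-fold lower. A single WT cell held 53 of the Id2 UMIs, and without it the WT level was 75.6 CPM. Id3, the member known for restraining E proteins in resting B cells, had 42.5 CPM under KO and 38.7 under WT (ratio 1.10, 0.894 to 1.34). The E protein genes were close in the libraries: Tcf3 stood at 105 and 89.2 CPM, Tcf4 at 493 and 517, and Tcf12 at 759 and 970.

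In monocytes Id2 marked the nonclassical, patrolling cells and differed little between the labels. Nonclassical monocytes had 418 CPM (1928 UMIs in 689 cells) under KO and 421 (1136 UMIs in 468 cells) under WT, a ratio of 0.993 (0.922 to 1.07). They exceeded classical monocytes 2.24-fold (2.13 to 2.36) and 2.11-fold (1.89 to 2.36). Classical monocytes had 186 and 199 CPM, a ratio of 0.935 (0.851 to 1.03). Id1 ratios were 0.881 (0.647 to 1.23) in classical and 0.902 (0.619 to 1.32) in nonclassical monocytes, both holding 1.

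Id3 was higher under the KO label in nonclassical monocytes and lower in classical ones. In nonclassical monocytes it stood at 225 CPM (212 to 239) against 122 (109 to 136), a ratio of 1.85 (1.63 to 2.10), and of 9259 genes tested there 9.09% were at least 1.5-fold higher. The thinned share was 16.9% (14.1 to 19.9) and 11.6% (8.81 to 14.9), with overlapping intervals, and 41.8% and 26.1% unthinned, at median depths of 7582 and 6227 UMIs, all above the shares of T cells given above. The classical monocytes had 127 CPM of Id3 under KO and 154 under WT (ratio 0.825, 0.741 to 0.922). No member passed 1.5-fold in classical monocytes, where 16.8% of 11585 genes were higher and 13.7% lower by that measure.

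The classical gate held unlike cells in the libraries, which the primary and secondary granule genes Camp, Ltf, Ngp, Elane, Mpo, Prtn3, Ctsg and Fcnb show. Cells with UMIs of 2 or more of these 8 genes numbered 894 of 4412 under KO and 2 of 312 under WT. Within the KO library Id3 declined with the number of granule genes, from 187 CPM in 1251 cells with none to 130 in 2267 cells with 1 and 63.2 in 894 cells with more. The last stood at 0.337 (0.309 to 0.368) of the first. Id2 declined less, from 219 to 186 and 157 CPM, with a ratio of 0.716 (0.672 to 0.763), and Id1 stood at 17.7, 16.7 and 14.9 CPM. Among cells with no granule gene UMI, Id3 was higher under the KO label, 187 against 141 CPM, a ratio of 1.33 (1.17 to 1.52), opposite to the whole gate. With 1 granule gene it was lower, 130 against 220 CPM in 47 WT cells, a ratio of 0.589 (0.473 to 0.743). The direction of Id3 in classical monocytes thus depended on which cells were compared. S100a8, an alarmin gene of neutrophils that can also be free RNA, stood at 3057 CPM in KO and 45.3 in WT classical monocytes, and its part in these values was not tested.

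**Figure D4:**
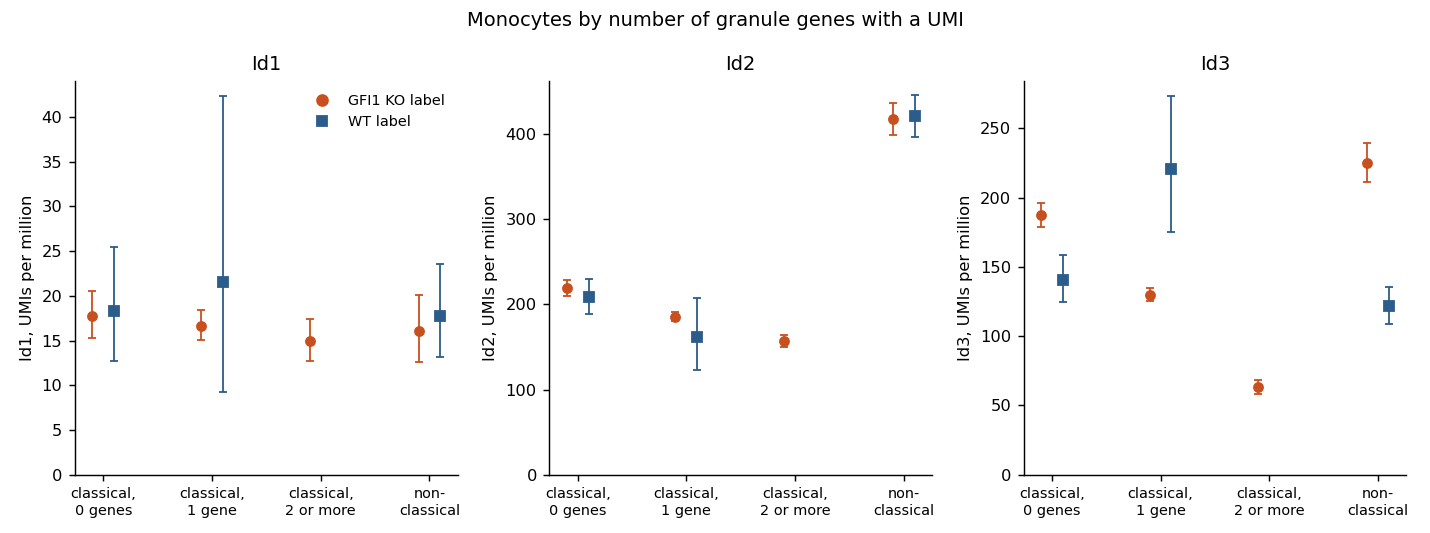
Id1, Id2 and Id3 in CPM in classical monocytes with UMIs of 0, 1, or 2 or more of 8 granule genes and in nonclassical monocytes, for the GFI1 KO label (circles) and the WT label (squares). Bars are exact Poisson 95% intervals, and the WT library is not drawn at 2 or more genes, where it had 2 cells. Id3 declines from 187 to 63.2 along the KO classical cells and is highest in KO nonclassical monocytes.

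The cells gated as neutrophils could hardly be compared. The gate held 21 KO and 1424 WT cells. The Ly-6G antibody tag, the defining surface marker, had a median of 5 UMIs in the KO cells and 243.5 in the WT cells, so the label was not borne out by this tag under KO. Id2 stood at 326 CPM (63 UMIs) against 53.4 (228 UMIs), a ratio of 6.09 (4.53 to 8.08), and Id3 at 25.8 (5 UMIs) against 9.14 (39 UMIs), with an interval of the ratio from 0.869 to 7.18. Id1 was alike at 62.0 and 50.9 CPM. In this gate 37.4% of 6360 genes were at least 1.5-fold higher and the median log2 ratio of all genes was 0.26. The immediate-early list was lower in 9 of 11 genes, against 29.6% of all genes, and the median depth was 10291 and 2946 UMIs. The part of these differences in the Id2 value was not tested.

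Interstitial macrophages, the C1q-positive tissue macrophages, had 761 CPM of Id3 (663 to 869, 217 UMIs) in 38 KO cells and 67.7 (54.3 to 83.3, 89 UMIs) in 171 WT cells, a ratio of 11.2 (8.75 to 14.6). An Id3 UMI was found in 20 of 38 and in 24 of 171 cells, and thinned shares were 36.8% (21.8 to 54.01) and 4.17% (1.69 to 8.40), at median depths of 8853 and 8473 UMIs. Leaked endothelial Id3, reckoned from Cldn5 as above, would stand at 0.690 and 1.88 CPM. Cldn5 in the KO cells, at 3.51 CPM, lay under the level of 3 counts, 10.5 CPM. The highest cell in each library held 42 and 20 of these UMIs, and without it the levels were 633 and 53.1 CPM. Id1 was also higher, at 52.6 CPM (15 UMIs) against 16 (21 UMIs), a ratio of 3.29 (1.58 to 6.70), although 1 KO cell held 6 of the 15 UMIs. Id2 was alike at 196 and 184 CPM, a ratio of 1.07 (0.783 to 1.43). Of 6904 genes tested, 14.1% were at least 1.5-fold higher, and 0.101% had a ratio as high as that of Id3. The check markers of this type were high in both libraries, at 14298 and 15024 CPM in sum.

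The BMP and SMAD genes did not share the direction of Id1 and Id3 in interstitial macrophages. Of 11 tested, 0 were at least 1.5-fold higher and 7 lower, where 24.2% of all genes were lower, with a median log2 ratio of −0.77 against −0.04 over all genes. The type I receptor gene Tgfbr1 stood at 158 and 455 CPM, and the inhibitory Smad7, itself a target of these signals, at 10.5 and 35.7 on 3 and 47 UMIs. Of 11 dissociation and immediate-early genes, 3 were at least 1.5-fold lower and 1 higher, against 24.2% and 14.1% of all genes. Their median log2 ratio was 0.02 against −0.04 over all genes. The lower ones were Fosb, Jun and Egr1 at ratios of 0.341, 0.588 and 0.651, and Nr4a1 was higher at 1.55. Their part in the Id3 value was not tested.

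In alveolar macrophages, the resident phagocytes of the airspace, Id1 was higher and Id2 and Id3 were slightly lower under the KO label. Id1 stood at 136 CPM (131 to 141, 3054 UMIs in 2002 cells) against 86.6 (83.8 to 89.6, 3518 UMIs in 3361 cells), a ratio of 1.57 (1.5 to 1.65). Few genes differed so much in this type, as 1.61% of 12291 genes tested were at least 1.5-fold higher and 1.22% had a ratio as high as that of Id1. At equal depth 16.8% (15.2 to 18.5) and 11.2% (10.1 to 12.3) of cells had an Id1 UMI, and 56.3% and 46.7% unthinned, with median depths of 13006 and 13563. T cells, which hold almost no Id1, had thinned shares of 0.134% and 0.211%. The ratio was 1.74 (1.55 to 1.95) in cycling and 1.54 (1.46 to 1.62) in other alveolar macrophages, so it was present in both. In cycling cells the ratios of Id2 and Id3 were 0.976 (0.879 to 1.08) and 1.01 (0.825 to 1.23), both holding 1. The Id2 level was 149 against 170 CPM (ratio 0.878, 0.842 to 0.915), and the Id3 level 39.6 against 46.4 (ratio 0.854, 0.788 to 0.926). Of 15 BMP and SMAD genes tested in these cells, 0 were higher and 2 lower, against 7.08% of all genes lower. These were Eng, an endothelial co-receptor, at 0.624 and 2.83 CPM, and the ligand gene Bmp6 on 2 and 35 UMIs. Among 11 dissociation genes only Hspa1a passed 1.5-fold, with a ratio of 1.66.

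Conventional dendritic cells held Id2 at a like level in both libraries. It stood at 860 CPM (772 to 954) in 40 KO cells and 841 (801 to 882) in 177 WT cells, a ratio of 1.02 (0.909 to 1.15). Set beside NK cells, they held 1.27-fold (1.12 to 1.43) as much under KO and 0.872-fold (0.827 to 0.920) under WT. Plasmacytoid dendritic cells had 60.8 CPM in 11 cells and 62.3 in 106. The conventional cells thus stood 14.1-fold (6.003 to 43.8) and 13.5-fold (10.0 to 18.6) above the plasmacytoid ones. Among conventional cells, those with a UMI of Xcr1 or Clec9a, markers of the cross-presenting type, had 950 CPM in 30 cells and 923 in 119. Those with Cd209a, a marker of the other type, had 93.3 CPM on 4 UMIs in 5 KO cells and 588 in 38 WT cells. Their Id3 ratio was 19.1 (5.93 to 71.0) on 10 and 5 UMIs. All 10 KO UMIs came from a single cell, so this interval does not cover the spread between cells. In the whole gate Id3 stood at 73.1 CPM against 11, a ratio of 6.63 (3.70 to 12.1), but its 30 KO UMIs came from 3 of 40 cells and the 22 WT UMIs from 13 of 177. The highest KO cell held 11 of them, and without it the level was 48.2 CPM. Of 7600 genes tested, 10.1% were at least 1.5-fold higher and 0.0658% had a ratio as high as that of Id3. Id1 rested on 8 and 11 UMIs, with a ratio of 3.54 (1.23 to 9.65).

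Endothelial cells carried Id1 and Id3 in both libraries and little Id2. In 107 KO and 2205 WT cells Id1 had a ratio of 1.36 (1.14 to 1.60) and Id3 one of 0.934 (0.827 to 1.05). Of the genes tested there, 19.6% had a ratio as high as that of Id1. With cells thinned to 1500 UMIs the Id1 ratio was 1.15. Id2 stood at 17.8 CPM on 7 UMIs against 47.5 on 507, a ratio of 0.375 (0.150 to 0.779), and 19.5% of 11005 genes tested were at least 1.5-fold lower there. General capillary cells, which had 79 and 1758 members, stood at 395 and 273 CPM of Id1 and 750 and 780 of Id3. Aerocytes, the capillary cells of gas exchange, stood at 421 CPM of Id1 in 130 WT cells, above the WT general capillary cells, whose Id1 was 0.647 (0.573 to 0.733) of it. Only 6 aerocytes were in the KO library. Of 17 BMP and SMAD genes tested in endothelium, 6 were at least 1.5-fold lower, against the 19.5% of all genes, and 0 higher. The share of all genes that were higher is not given for this gate, so the 0 has no comparison. Smad6 and Smad7, inhibitory targets of the pathway, stood at 341 and 634 CPM and at 226 and 387, while Smad9 and Atoh8, counted as lower, had 0 KO UMIs. There 3 counts would stand at 7.63 CPM, above their WT levels of 3.18 and 5.05, so a lower level was not detectable at this depth. Of 11 dissociation and immediate-early genes, 3 were at least 1.5-fold higher and 3 lower in KO endothelial cells, where 19.5% of all genes were lower. The 3 higher ones likewise have no comparison. Among them, Egr1 and Fos were lower at ratios of 0.0689 and 0.349 and Hspa1a was higher at 3.60. The part of these in the Id values was not tested. Fibroblasts had an Id3 of 407 CPM in 12 KO cells and 741 in 268 WT cells, a ratio of 0.549 (0.376 to 0.775).

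The E protein genes, partners of the Id proteins, mostly stayed within 1.5-fold. In T cells Tcf3 stood at 47.2 CPM in both libraries, Tcf4 at 21.6 and 25.4, and Tcf12 at 610 and 721, so 0 of 3 passed 1.5-fold. None of the 3 passed in NK cells, B cells, nonclassical monocytes, alveolar macrophages or endothelial cells. In classical monocytes Tcf3 was higher, at 17.7 against 11.7 CPM, and Tcf12 lower, at 101 against 153. In interstitial macrophages Tcf4 and Tcf12 were lower at ratios of 0.637 and 0.632, and in conventional dendritic cells Tcf4 was higher at 1.66. In the neutrophil gate Tcf4 and Tcf12 were higher, on 17 and 9 KO UMIs, and Tcf3 had 0 KO UMIs, where 3 counts would stand at 15.5 CPM, above the WT level of 7.03. The BMP and SMAD list in T cells had 13 genes tested, 2 higher and 8 lower, against 11.2% and 11.1% of all genes. The type I receptor genes Acvr1 and Bmpr1a were the higher ones, at ratios of 4.59 and 3.02, and Tgfbr2 stood at 534 and 978 CPM, a ratio of 0.546. In the gates not yet named for this list, with the shares of all genes given above and 4.62% higher in B cells, 9.73% lower in nonclassical monocytes and 16.2% lower in conventional dendritic cells, 1 of 8 genes was lower in NK cells, 2 of 12 were higher and 3 lower in B cells, 1 of 12 was lower in classical and 1 higher and 1 lower of 12 in nonclassical monocytes. In conventional dendritic cells 1 of 10 was higher and 2 lower, and in neutrophils 3 of 9 were higher and 3 lower. These are small counts. Those in NK cells and in both monocyte types lie under the shares of all genes. Those in conventional dendritic cells and neutrophils lie close to them, and those in B cells lie above them. The 11 dissociation genes had 1 higher and 1 lower in T cells, against 11.2% and 11.1% of all genes there. In B cells 1 was higher and 3 lower, against 4.62% and 7.85%. In classical monocytes 3 were lower, against 13.7%, and none passed 1.5-fold in nonclassical ones. Conventional dendritic cells had 3 higher and 1 lower, against 10.1% and 16.2%.

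Cells were also split by whether they held an Id3 UMI, which favours deeper cells. In alveolar macrophages those with Id3 had more Id2, 189 against 139 CPM in the KO and 236 against 150 in the WT library, at median depths of 14465 and 12635 and of 14838 and 13238 UMIs. In CD4 T cells of the KO library the 6 cells with Id3 had less, 102 CPM on 4 UMIs against 396, while the WT levels of 146 and 199 overlapped in their intervals. WT CD8 T cells with Id3 had more Id2, 285 against 206 CPM, while the KO levels of 236 and 250 overlapped in their intervals. Endothelial cells with Id3 had more Id1, 420 against 187 CPM and 288 against 178. Less Id2 in cells with Id3 was thus seen beyond counting error only in the KO CD4 T cells, where it rests on 6 cells.

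The pattern across cell types was set beside that of 7225 other genes over the 7 types with at least 50 cells in each library. These 14 points share libraries and depth, so the correlations of log2(CPM + 10) only describe. Id1 was most like Soga1 (Pearson r of 0.990), Ctnnd1 (0.987), which encodes p120 catenin of cell junctions, Pkd2 (0.976), Cttnbp2nl (0.974) and Adgrl3 (0.973). Soga1 stood at 115 and 112 CPM in endothelial cells and at 53.0 and 53.7 in alveolar macrophages, without the Id1 difference between the libraries in the latter. Id2 was most like Nptn (0.936), Pik3r5 (0.930), a regulatory subunit of the leukocyte kinase PI3Kγ, Ostm1 (0.924), Me2 (0.917) and Prex1 (0.913). In NK cells Nptn, Ostm1 and Prex1 were lower under KO than WT, at 346 and 450, 47.5 and 59.9, and 552 and 795 CPM. Pik3r5 and Me2 were higher there, at 389 and 332 and at 287 and 225 CPM. Id3 was most like BC028528 (0.968), Lipe (0.956), Cdc42ep4 (0.952), Thbd (0.952), the thrombin receptor thrombomodulin, and Acap2 (0.950). BC028528 stood at 1018 and 914 CPM in endothelial cells and at 196 and 140 in nonclassical monocytes. In the latter, Lipe stood at 52.2 and 50.8 CPM, Cdc42ep4 at 24.7 and 20.75, Thbd at 131 and 126, and Acap2 at 259 in both libraries. These values were among the points used to choose the genes. Among the members, Id1 and Id3 had an r of 0.742, Id1 and Id2 one of −0.577, and Id2 and Id3 one of −0.625.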

How the data were processed

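Per the labels and the study's methods, live lung cells were sorted and loaded on the 10x Genomics 3′ v3 chemistry. The authors deposited raw UMI counts per called cell for 33696 genes and 18 antibody tags, without normalization. The submitters' processing notes name Cell Ranger 9.0.1 and the builds GRCm39 and mm39. Following the study, 205 KO and 173 WT cells were dropped for holding fewer than 500 UMIs, fewer than 200 genes or more than 20% mitochondrial UMIs, and 9529 ribosomal, mitochondrial and Gm genes, with 18.9% and 16.4% of UMIs, were not counted in totals.

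A cell was gated when it had UMIs of at least 50% of the genes of a panel, more than of any other, and of under 50% of every other panel, except between related types. In all, 1275 and 3383 cells stayed in no gate. Panels, members, lists and tests were chosen with earlier results of these data known, and gate limits, the state rule and the added alternatives after seeing the data. Named were the members, Id4, Gfi1, Gfi1b, genes of the lists (E proteins, BMP and SMAD, naive, effector, dissociation, free RNA), of which 1 is not reported here, and the 5 genes most like each member (at least 50 CPM in 1 type). Genes with at least 30 UMIs in a gate were compared at 1.5-fold, with 0.5 UMIs added for medians. With 1 library per genotype, no test was made and no SE is given. A count of 0 in a comparison is given with the level of 3 counts. Thinning used 1 fixed draw of 1500 UMIs per cell, leaving shallower cells out. Doublets were not removed. Scrublet called 346 (3.30%) and 1143 (5.91%) of them, and their removal was an alternative, as were other totals, stricter gates, no cell filter, thinned cells, means of cells, no cycling cells, clusters (Leiden, resolution 0.8, 15 neighbours, 50 components, 2000 variable genes, 38 clusters), antibody tags and, added later, shared barcodes left out, centring and equal state mix. The code ran with Python 3.11.15, numpy 2.4.6, scipy 1.17.1, pandas 2.3.3, scanpy 1.11.5, leidenalg 0.10.2 and matplotlib 3.10.9 and was tested on simulated data. Sequences came from RefSeq (GRCm38.p6) and GENCODE.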

Additional observations from a re-analysis of the deposited data

Results flagged for a closer look

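Ratios of Id2 and Id3 between the libraries went in opposite directions in different cell types, with counting intervals on either side of 1. The differences between cell types were not tested, since each ratio rests on 1 library per genotype. The ratio of Id2, KO over WT label, was 1.54 in T cells, against 0.705 in NK cells, 0.553 in B cells, 0.878 in alveolar macrophages and 0.375 in endothelial cells. With T cell states weighted to the WT mix it was 1.08 in T cells. For Id3 it was 1.85 in nonclassical monocytes, against 0.825 in classical monocytes, 0.537 in T cells and 0.854 in alveolar macrophages. Among classical monocytes with no granule gene UMI it was 1.33 (1.17 to 1.52), the opposite direction. Id1 had no such pair of types.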

How the results depend on the processing

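Values here are log2 ratios, KO over WT label, of the 3 members in T cells, NK cells, classical monocytes and neutrophils. Of 120 alternative values for these 12 ratios, 112 moved by less than the counting interval, 8 moved by more, and 0 turned the direction of a ratio whose interval lay apart from 1. Thinned cells gave −0.37 for Id2 in NK cells, 0.54 for Id1 and −0.35 for Id2 in classical monocytes, and 3.02 for Id2 and 3.28 for Id3 in neutrophils. Without cycling cells Id2 in NK cells was −0.28, and in clusters in place of gates −0.38. With T cell states weighted to the WT mix, Id2 in T cells was 0.12. Of 117 further alternative values, 3 moved, all on thinning: Id2 in CD8 T cells to 0.06, Id2 in mixed-type T cells to 0.0084, and Id3 in nonclassical monocytes to 0.66. The causes were not tested. Id1 in NK cells had no value under stricter gates or thinning, nor Id1 in CD4 T cells at all, for lack of UMIs.

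No paired analysis was possible because each genotype has 1 library, and the replicate number that the labels share names no pair. Depth limits Id1 in lymphocytes and all members in the KO neutrophils, ILC2, aerocytes and plasmacytoid dendritic cells. With 1 mouse named per label, no value speaks to the spread between animals.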

Other observations

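Id4, the remaining family member, was found in structural cells. It stood at 14.8 CPM (5 UMIs) in KO and 16.9 CPM (21 UMIs) in WT epithelial cells and at 27.0 CPM (47 UMIs) in WT fibroblasts, while 12 KO fibroblasts had none, where 3 counts would stand at 37.0 CPM. Over all kept cells it had 8 and 156 UMIs. Gfi1b, the paralog of Gfi1, stood at 1.23 and 0.751 CPM over all kept cells. In nonclassical monocytes it stood at 7.37 CPM (34 UMIs) and 4.45 (12 UMIs), and in classical monocytes at 0.683 (30 UMIs) and 1.74 (4 UMIs).

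Cells in no gate, 1275 under KO and 3383 under WT, had 74.4 and 69.3 CPM of Id1, 216 and 252 of Id2 and 80.9 and 123 of Id3. Mural cells, of which 24 were in the WT library, had 633 CPM of Id3 and 90.4 of Id1. Scgb1a1, the secretory gene of club cells, was seen in every gate of the WT library between 101 and 289 CPM outside epithelial cells, and in KO T cells at 27.5 CPM against 173 in WT T cells.

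Gfi1 RNA under the KO label stood at 14.8 CPM in B cells against 6.61 in the WT library, at 1.47 against 0.172 in alveolar macrophages and at 31.2 against 24.6 in NK cells. In classical monocytes Gfi1 stood at 1.30 CPM (57 UMIs) under KO and had 0 UMIs under WT, where 3 counts would stand at 1.31 CPM, so a difference was not detectable at this depth.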
